A study of Mus musculus with 12 samples.

Results

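The genes described here are the organisers of the neuromuscular junction in mouse tibialis anterior (TA) muscle. They were chosen by name, as *Agrn*, *Lrp4*, *Musk*, *Dok7*, *Rapsn*, *Ache* and *Colq*, and matched from mouse symbol to Ensembl gene in a table of read counts. All 7 were found among the 55450 genes of the table, and all 7 passed the filter on low counts that left 19276 genes to test. RNA came from the TA of wild-type (WT) mice of the 129Pas genetic background (129SvPas in the study's methods) in the late embryo (E18.5), at 2 wks and at 7 wks. Each age had 4 mice, which makes 12 libraries. No mouse carried a mutation or received a treatment, so age is the difference between the groups. The study concerned the isoforms of *Dnm2* in muscle and in centronuclear myopathy, and these libraries served to follow those isoforms with age. The counts per gene answer another question, which is how much RNA of each organiser gene was found at each age.

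The neuromuscular junction is the synapse through which a motor axon drives a muscle fibre. Agrin, released by the nerve terminal, binds the receptor LRP4 on the fibre, which activates the receptor tyrosine kinase MuSK. MuSK, with its cytoplasmic activator DOK7, drives rapsyn to cluster acetylcholine receptors below the terminal, while acetylcholinesterase, held in the synaptic basal lamina by the collagen tail ColQ, ends each signal. Loss of agrin, LRP4, MuSK, DOK7 or rapsyn in mice keeps endplates from forming, and mutations in most of the human genes cause congenital myasthenic syndromes. In a mature fibre the organiser transcripts are made mostly by the few nuclei under the synapse. The RNA here came from pieces of whole muscle, so that fewer cells of a type and less RNA per cell cannot be told apart.

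The libraries held 63018968 to 123449246 counted reads, and even *Musk*, the lowest of the organisers after birth, had 149 to 1675 reads per library. Levels are given as CPM, the counts scaled to a common library size, with TMM scaling, which corrects for the few very abundant genes. The share of reads on the 20 genes with most reads was 13.7 to 16.1% at E18.5, against 33.2 to 37.8% after birth. Scaling to total counts instead moved the median of all genes by -0.93 (log2) between E18.5 and 2 wks and by -0.35 between 2 and 7 wks, and the split of called genes for the first interval from 6074 higher and 6594 lower to 2552 and 11917. The libraries also differed in the level of GC-rich against GC-poor transcripts. The median log2 ratio to the mean library of the 2373 GC-richest genes minus that of the 2373 GC-poorest was between -1.81 (replicate 1) and -0.09 at E18.5. It was between 0.59 and 0.81 at 2 wks, and between -0.28 and 0.66 at 7 wks. Of the 7 organisers, *Musk* had a GC content of 42.6%, below most tested genes, and the other 6 lay between 53.8% (*Colq*) and 59.9% (*Dok7*), above most of them. Each organiser is therefore also given with this trend removed from every library. Every E18.5 library lay below 0 and every library of 2 wks above it, so this trend and age cannot be told apart in the first interval. Its source was not tested, and its removal may also take out part of a change with age. The 6 muscle fibre markers had a summed level of 8893 to 16733 CPM at E18.5 and 88010 to 120616 CPM at 2 wks. By 7 wks it was 100904 to 145062 CPM. All 6 of them rose to 2 wks. Muscle was thus found in each library, but which muscle it was cannot be read from these markers. Other tissue was also present. Summed cartilage and bone markers reached 142 CPM in E18.5 replicate 2, and their lowest embryonic sum was 23.5 CPM. The highest sum of a library was 22.1 CPM at 2 wks and 2.90 CPM at 7 wks. In E18.5 replicate 3 the fibroblast markers, at 8863 CPM, nearly equalled the muscle fibre markers, and in the other embryonic libraries they lay below them. The part of such tissue in the changes to 2 wks was not tested.

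A window before a start site was given for 4 of the 7 organisers in the RefSeq promoter table (GRCm38.p6), and 3 of the windows are shown because their genes had the largest changes to 2 wks in this set, upwards for *Dok7* and *Ache*, or were the kinase of the pathway, *Musk*. Each is the 250 bases before a transcript start site in that table, which for *Musk* and *Dok7* lies inside the range of the gene given below, so that most of these 2 windows is within the gene as annotated. They are written 5′ to 3′ on the strand of the gene, with capitals marking E-boxes (CANNTG, read on both strands). E-boxes are a class of elements, and only some of them are sites of myogenic factors such as myogenin. Binding to the marked sites was not tested.
Musk, chr4:58285712-58285961, plus strand: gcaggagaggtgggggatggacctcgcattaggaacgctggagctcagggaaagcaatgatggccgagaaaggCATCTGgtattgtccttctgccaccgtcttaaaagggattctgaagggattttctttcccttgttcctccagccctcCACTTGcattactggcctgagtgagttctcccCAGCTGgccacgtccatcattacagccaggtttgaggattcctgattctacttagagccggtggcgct
Dok7, chr5:35056516-35056765, plus strand: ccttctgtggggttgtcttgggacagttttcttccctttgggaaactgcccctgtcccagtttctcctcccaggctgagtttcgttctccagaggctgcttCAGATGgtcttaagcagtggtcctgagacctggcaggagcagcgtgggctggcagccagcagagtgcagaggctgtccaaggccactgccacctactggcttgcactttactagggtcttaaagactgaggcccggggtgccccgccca
Ache, chr5:137288004-137288253, plus strand: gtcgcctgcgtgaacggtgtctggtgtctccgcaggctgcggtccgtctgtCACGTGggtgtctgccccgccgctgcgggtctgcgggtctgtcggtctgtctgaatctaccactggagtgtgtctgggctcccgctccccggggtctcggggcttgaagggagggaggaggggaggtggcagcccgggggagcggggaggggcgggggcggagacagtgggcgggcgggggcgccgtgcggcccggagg

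The *Musk* window held 3 E-boxes, which began at 177, 100 and 68 bases before the start site of the table, and the nearest of them had the letters CAGCTG. The windows shown for *Dok7* and *Ache* held 1 each, at 149 and 199 bases. A second *Dok7* window, chr5:35056822-35057071, held 0 E-boxes, had a GC content of 75.2% and is not shown. In all 32851 windows of the same length, 66.2% held at least 1 E-box and 13.0% held CAGCTG, which is itself an E-box and was searched for after the first motifs. The N-box (CCGGAA, both strands), an element of synaptic genes bound by ETS factors, was in 12.03% of all windows and in 0 of the 6 windows of *Musk*, *Dok7*, *Ache* and *Agrn*. This says only that these letters are not in these windows. GC content was 53.6% in the *Musk* window, 58.8% in the *Dok7* window shown and 73.6% in that of *Ache*, against a median of 52.4%.

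Between E18.5 and 2 wks, 3 of the 7 organisers rose (*Dok7*, *Ache* and *Rapsn*) and 2 fell (*Musk* and *Lrp4*), by the quasi-likelihood test of edgeR, with p-values adjusted over all tested genes after Benjamini and Hochberg. Of all genes tested, 31.5% were called higher at 2 wks and 34.2% lower. The median log2 fold change was 0.32 over the 7 genes and -0.09 over all genes. Between 2 and 7 wks 1 organiser, *Agrn*, fell and 0 rose, where 13.5% of all genes were called higher and 13.9% lower, with medians of -0.32 and -0.03. At an unadjusted p under 0.05 the counts were 0 and 2, and DESeq2 with adjustment gave 0 and 1. From E18.5 to 7 wks 3 were higher and 3 lower, against 34.3% and 37.1% of all genes, with medians of -0.33 and -0.09. The 12 values of each gene are shown in the plots by age.

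**Figure D1:**
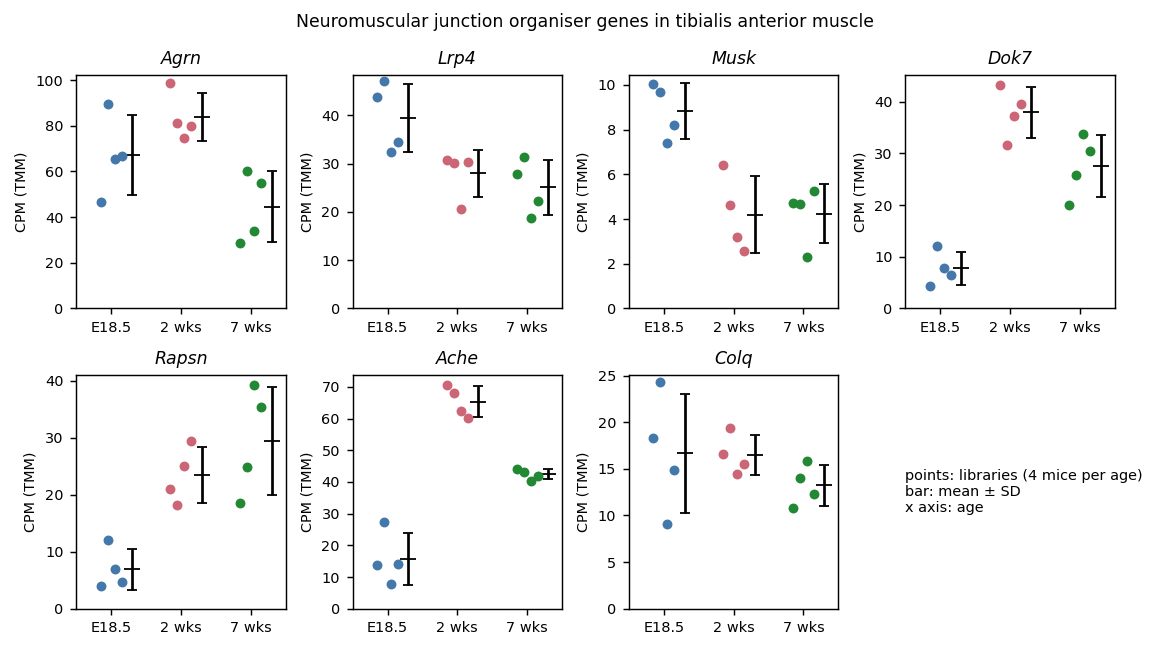
CPM with TMM scaling (y axes, from 0) of the 7 organiser genes by age (x axes), with a point for each library and a bar for the mean ± SD of 4 mice. *Dok7*, *Rapsn* and *Ache* lay higher in every library at 2 wks than at E18.5, *Musk* and *Lrp4* lay lower in every library, and the ages overlapped for *Agrn* and *Colq*.

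*Agrn* (ENSMUSG00000041936, minus strand, chr4:156165290-156197533 of GRCm38.p6) encodes agrin, the nerve-derived organiser that muscle fibres and other cells also make in forms with little clustering activity. Its level in the libraries of E18.5 was 46.7, 89.7, 65.6 and 66.9 CPM for replicates 1 to 4. At 2 wks it was 98.9, 81.4, 74.8 and 79.7 CPM. At 7 wks it was 28.8, 60.4, 33.8 and 55.0 CPM. Every library of 7 wks was below every library of 2 wks, while E18.5 and 2 wks overlapped. The mean went from 67.2 ± 17.6 CPM (SD, n = 4) in the embryo to 83.7 ± 10.5 at 2 wks, a log2 fold change of 0.32 (SE 0.24, adjusted p = 0.262, edgeR), and then fell to 44.5 ± 15.5 CPM at 7 wks, by 0.91 on the log2 scale (SE 0.24, adjusted p = 0.0138). The direction of the first step depended on the treatment of the libraries, since it was -0.66 with the GC trend removed (adjusted p = 0.0115) and -0.60 with scaling to total counts (adjusted p = 0.0433). The fall from 2 to 7 wks kept its direction and its call under both, at -0.63 (adjusted p = 0.0318) with the GC trend removed. At 7 wks *Agrn* was also below E18.5, by 0.60 on the log2 scale (adjusted p = 0.0398), a call that was lost when any 1 of 8 single libraries was left out. Summed Schwann cell markers (7 genes, all above 0 in every library) ranged over 164 to 255 CPM at E18.5, 136 to 634 at 2 wks and, by 7 wks, 104 to 155, and the highest sum and the highest *Agrn* of 2 wks were both in replicate 1. Summed endothelium markers (4 genes) were likewise highest at 2 wks, where each library had 669 CPM or more. No library of E18.5 exceeded 429 CPM, and none of 7 wks exceeded 666 CPM. Within 2 wks their highest sum, 824 CPM, was in replicate 3, which had the lowest *Agrn* of that age. The part of Schwann cells or endothelium in the *Agrn* values was not tested.

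*Lrp4* (ENSMUSG00000027253, plus strand, chr2:91457456-91513901) encodes the agrin receptor, a member of the LDL receptor family that also signals back to the nerve. Its level was 43.8, 47.0, 32.5 and 34.5 CPM at E18.5. It was 30.7, 30.2, 20.6 and 30.4 CPM at 2 wks and 27.9, 31.4, 18.8 and 22.2 CPM at 7 wks. All 4 libraries of E18.5 were above all those of the later ages, which overlapped each other. The mean fell from 39.5 ± 7.05 CPM (SD, n = 4) to 28.0 ± 4.90, by 0.50 on the log2 scale (SE 0.19, adjusted p = 0.0353, edgeR). The call was lost when E18.5 replicate 1 or 2, or any one of the libraries of 2 wks, was left out, with adjusted p from 0.0513 to 0.120, and also with the trend over transcript length removed (-0.30, adjusted p = 0.136), although the sign stayed. Removal of the GC trend made the fall larger, by 1.31 (adjusted p = 0.000307). The change from 2 to 7 wks was -0.16 (adjusted p = 0.573), so that the level at 7 wks, 25.1 ± 5.63 CPM, stood 0.65 below that of E18.5 on the log2 scale in all 16 pairs of libraries (adjusted p = 0.00755).

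*Musk* (ENSMUSG00000057280, plus strand, chr4:58285729-58377848) encodes the receptor tyrosine kinase at the centre of the pathway, and was the lowest of the 7 at both later ages. Its level was 10.03, 9.71, 7.41 and 8.19 CPM at E18.5. At 2 wks it was 6.42, 4.61, 3.18 and 2.57 CPM, and at 7 wks 4.73, 4.67, 2.28 and 5.26 CPM. The 4 libraries of E18.5 were all above those of both later ages, and the later ages overlapped each other. The mean fell from 8.83 ± 1.24 CPM (SD, n = 4) to 4.20 ± 1.71 at 2 wks, a 2.11-fold drop (log2 fold change -1.08, SE 0.30, adjusted p = 0.00574, edgeR). At 7 wks it was 4.24 ± 1.33 CPM, with a log2 fold change of 0.02 from 2 wks (SE 0.30, adjusted p = 0.976), and the sign of that step turned under several settings. *Musk* is the AT-rich gene of the set, and with the GC trend removed its fall to 2 wks was smaller, at -0.68 (adjusted p = 0.0468). With scaling to total counts it was -1.97. A non-coding antisense gene, *Gm68860*, shares 93 exonic bases with it in GENCODE vM39, and whether the counting used strand is not stated.

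*Dok7* (ENSMUSG00000044716, plus strand, chr5:35056571-35087839) encodes the adaptor that binds MuSK inside the fibre and is needed for its full activation. Its level was 4.44, 12.2, 7.84 and 6.51 CPM at E18.5. It was 43.3, 31.6, 37.3 and 39.6 CPM at 2 wks and 20.02, 25.9, 33.7 and 30.5 CPM at 7 wks. Every later library was above every library of E18.5, and the lowest value of all was in E18.5 replicate 1, the library poorest in GC-rich transcripts. *Dok7* had the largest rise of the 7, from 7.74 ± 3.27 CPM (SD, n = 4) to 38.0 ± 4.90, or 4.90-fold (log2 fold change 2.29, SE 0.27, adjusted p = 7.53e-06, edgeR). Of the tested genes, 97.1% had a lower GC content. After removal of the GC trend the rise was 1.04 on the log2 scale (adjusted p = 2e-06), from 12.1 ± 0.942 to 25.1 ± 2.38 CPM, and with total counts it was 1.36 (adjusted p = 0.00031), so it remained a called rise of smaller size. From 2 to 7 wks the log2 fold change was -0.46 (SE 0.26, adjusted p = 0.194), and -0.03 with the GC trend removed. It was called with total counts (-0.82, adjusted p = 0.0279) and in the 8 libraries of the later ages alone (-0.50, adjusted p = 0.0438). At 7 wks *Dok7* was above E18.5 by 1.83 (log2, adjusted p = 2.79e-05), and by 0.54 with total counts (adjusted p = 0.0673).

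*Rapsn* (ENSMUSG00000002104, plus strand, chr2:91035472-91045729) encodes rapsyn, the scaffold that binds acetylcholine receptors and packs them into clusters. Its level was 3.91, 11.99, 7.05 and 4.77 CPM at E18.5. At 2 wks it was 21.0, 18.2, 24.98 and 29.4 CPM, and at 7 wks 18.6, 24.9, 39.2 and 35.3 CPM. The 8 postnatal libraries were all above those of E18.5 and overlapped between 2 and 7 wks. The mean rose from 6.93 ± 3.63 CPM (SD, n = 4) to 23.4 ± 4.90, or 3.37-fold (log2 fold change 1.75, SE 0.33, adjusted p = 0.000377, edgeR), and was 29.5 ± 9.49 CPM at 7 wks (log2 fold change from 2 wks 0.34, adjusted p = 0.465). Without the GC trend the steps were of nearly equal size, 0.63 (adjusted p = 0.0066) and 0.69 (adjusted p = 0.00957), and both were called. With total counts they were 0.81 (adjusted p = 0.0312) and -0.0049 (adjusted p = 0.995). *Rapsn* at 7 wks was 4.26 times its level at E18.5 (log2 fold change 2.09, adjusted p = 7.2e-05).

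*Ache* (ENSMUSG00000023328, plus strand, chr5:137288247-137294466) encodes acetylcholinesterase, the enzyme that splits acetylcholine in the cleft. Its level was 13.7, 27.3, 7.77 and 14.0 CPM at E18.5. It was 70.6, 68.1, 62.3 and 60.1 CPM at 2 wks and 44.0, 43.2, 40.4 and 41.9 CPM at 7 wks. The 3 ages did not overlap, with 2 wks highest and E18.5 lowest. The mean rose from 15.7 ± 8.24 CPM (SD, n = 4) to 65.3 ± 4.91, or 4.16-fold (log2 fold change 2.06, SE 0.28, adjusted p = 2.51e-05, edgeR). At 7 wks it was 42.4 ± 1.57 CPM, with a log2 fold change of -0.62 from 2 wks (SE 0.27) that did not pass the test (adjusted p = 0.0991), although all 16 pairs of libraries had the lower value at 7 wks. The fall was called with total counts (-0.98, adjusted p = 0.0135) and in a fit of the 8 libraries of 2 and 7 wks alone (-0.66, adjusted p = 0.000963), which also tested fewer genes. It was called as well without E18.5 replicate 2 (adjusted p = 0.0147) or replicate 3 (adjusted p = 0.0354), at the same size of change. Without the GC trend the rise to 2 wks was 0.87 (adjusted p = 0.00845) and the step to 7 wks was -0.22 (adjusted p = 0.546). With total counts the level at 7 wks was no longer called above that of E18.5 (0.17, adjusted p = 0.570), against 1.43 (adjusted p = 0.000317) with TMM. A non-coding antisense gene, *Gm57304*, shares 302 exonic bases with *Ache* in GENCODE vM39.

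*Colq* (ENSMUSG00000057606, minus strand, chr14:31523082-31577863) encodes the collagen tail that anchors acetylcholinesterase to the synaptic basal lamina and to MuSK. It shares 199 exonic bases with the protein-coding *Gm49387* on the same strand in GENCODE vM39, where reads cannot be told apart by strand. Its level was 18.4, 24.3, 9.13 and 14.8 CPM at E18.5. At 2 wks it was 16.6, 19.4, 14.4 and 15.5 CPM, and at 7 wks 10.8, 14.0, 15.8 and 12.3 CPM. The 3 ages overlapped. The means were 16.7 ± 6.37, 16.5 ± 2.12 and 13.2 ± 2.171 CPM (SD, n = 4), and the log2 fold changes were -0.01 to 2 wks (SE 0.24, adjusted p = 0.960) and -0.32 from 2 to 7 wks (adjusted p = 0.351, edgeR). The range at E18.5, in which replicate 2 was highest and replicate 3 lowest, was wider than the difference between any pair of means. With the GC trend removed the first step was -0.73 (adjusted p = 0.0165), and with total counts it was -0.92 (adjusted p = 0.00302), so that the flat course under TMM was not kept by either. The level at 7 wks against that at E18.5 gave -0.33 on the log2 scale (adjusted p = 0.230), and -0.54 (adjusted p = 0.0278) without E18.5 replicate 3. It was also called with total counts (-1.60, adjusted p = 2.8e-05), with the GC trend removed (-0.91, adjusted p = 0.00406) and with upper-quartile scaling (-0.57, adjusted p = 0.0462).

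**Figure D2:**
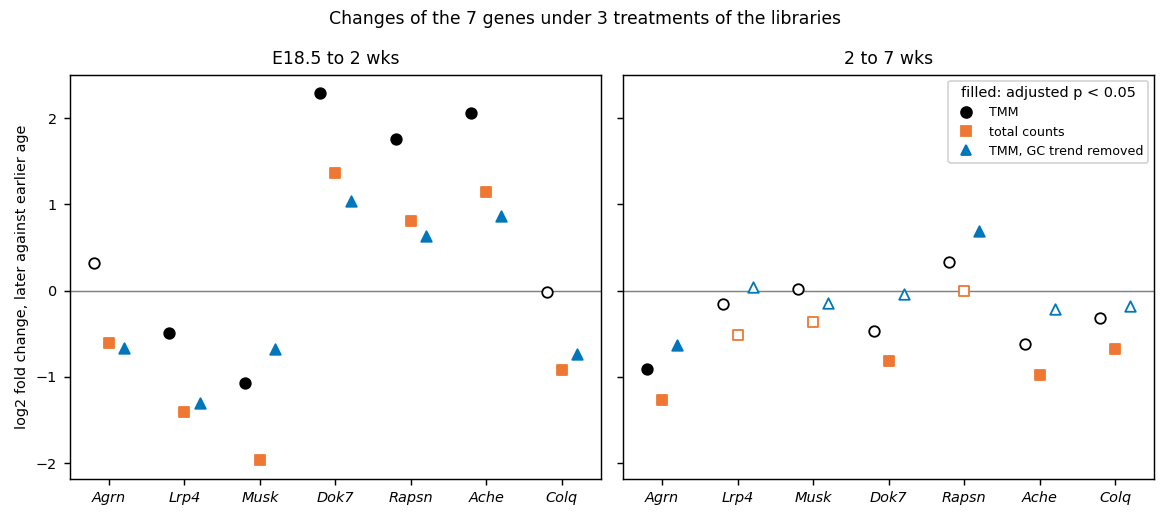
Log2 fold change (y axis) of each organiser (x axis) from E18.5 to 2 wks and from 2 to 7 wks under TMM scaling (circles), scaling to total counts (squares) and TMM with the GC trend removed (triangles), filled where the adjusted p was under 0.05. *Dok7*, *Rapsn* and *Ache* were above 0 and *Musk* and *Lrp4* below 0 in the first interval under all 3, while *Agrn* changed sign, from 0.32 to -0.66 and -0.60.

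The libraries of 2 wks and E18.5 did not overlap for 5 of the 7 organisers, where 61.3% of all genes did not overlap. Between 2 and 7 wks this held for 2 of the 7, *Agrn* and *Ache* (33.7% of all genes), and between E18.5 and 7 wks for 5 of the 7 (63.4%). The steps of the earlier and the later interval differed for 3 of the 7 in a test of that difference, against 38.4% of all genes. For *Dok7* the first change minus the second was 2.76 (log2, SE 0.43, adjusted p = 0.000416), for *Ache* 2.68 (SE 0.45, adjusted p = 0.000687) and for *Agrn* 1.23 (SE 0.41, adjusted p = 0.0301, edgeR). For *Rapsn* it was 1.42 with an adjusted p of 0.0528, for *Musk* -1.09 with 0.113, and for *Lrp4* and *Colq* -0.34 and 0.30, with 0.447 and 0.588. The call for *Agrn* was lost without 2 wks replicate 1, 2 or 4 (adjusted p = 0.0866, 0.0593 and 0.0581) and with total counts (0.66, adjusted p = 0.230). A call was gained for *Rapsn* without E18.5 replicate 2 (1.82, adjusted p = 0.0058) or 7 wks replicate 3 (1.60, adjusted p = 0.0377), with DESeq2 (1.38, adjusted p = 0.0442), with no filter (1.38, adjusted p = 0.0488) and with a replicate block (1.55, adjusted p = 0.0319), and for *Musk* without 2 wks replicate 1 (-1.60, adjusted p = 0.0397) or 7 wks replicate 3 (-1.29, adjusted p = 0.0381) and with total counts (-1.61, adjusted p = 0.0347). Without the GC trend it remained called for *Dok7* (1.08, adjusted p = 0.000599), was no longer called for *Ache* (1.08, adjusted p = 0.0657) and was -0.03 for *Agrn*, and it was called for *Lrp4* (-1.34, adjusted p = 0.0244).

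**Figure D3:**
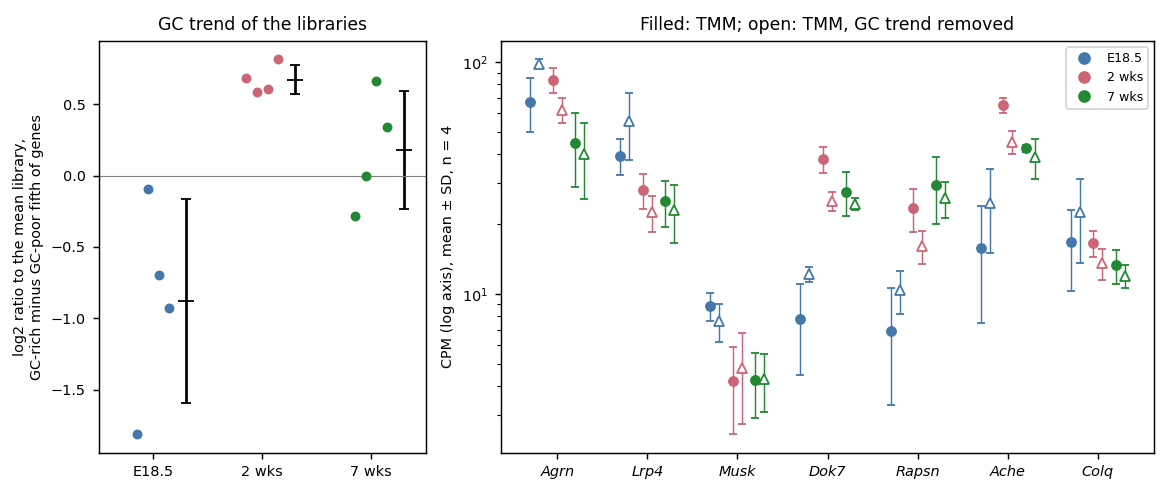
At left, the median log2 ratio to the mean library of the 2373 GC-richest genes minus that of the 2373 GC-poorest (y axis) for each of the 12 libraries by age (x axis), with mean ± SD of 4. At right, mean CPM ± SD (log axis) of the 7 organisers at the 3 ages, with TMM (filled circles) and with the trend removed (open triangles). E18.5 replicate 1 lies lowest at -1.81, and *Dok7* at E18.5 moves from 7.74 to 12.1 CPM.

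Read counts of a pair of genes in the same library give a ratio that does not depend on how libraries are scaled. It can still change when the GC trend is removed. In the E18.5 libraries *Ache* and *Colq*, the catalytic subunit and its anchor, had about equal counts, with 0.748 to 1.12 reads of *Ache* per read of *Colq*. The ratio was 3.52 to 4.32 at 2 wks and 2.55 to 4.06 at 7 wks. Every postnatal library was above every library of E18.5, and the mean log2 ratio was higher by 2.13 at 2 wks, or 4.39-fold (exact permutation test, two-sided, p = 0.0286). This is the smallest p that 4 libraries against 4 allow. The design held 15 such tests, and after Benjamini-Hochberg adjustment over the 15 it was 0.0536, so that no ratio of read counts passed 0.05. With the GC trend removed the step of *Ache* to *Colq* was 1.61 on the log2 scale. The reads of *Dok7* per read of *Musk*, activator to kinase, were 0.443 to 1.25 at E18.5, 6.74 to 15.4 at 2 wks and, by 7 wks, 4.23 to 14.8. The later ages did not overlap with E18.5, and the first step was 11.6-fold (log2 3.53, exact permutation p = 0.0286, adjusted 0.0536). These 2 genes stand far apart in GC content, and with the GC trend removed the step was 1.80 on the log2 scale.

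For *Rapsn* per read of *Chrna1*, the receptor subunit present in both fetal and adult receptors, the ratio was 0.0761 to 0.183 at E18.5, 0.350 to 0.802 at 2 wks and, by 7 wks, 0.611 to 1.30. It was 4.83-fold higher at 2 wks (log2 2.27, exact permutation p = 0.0286, adjusted 0.0536), and the ages of 2 and 7 wks overlapped (log2 difference 0.83, exact permutation p = 0.114). With the GC trend removed the first step was smaller and the second larger, at 0.92 and 1.33 on the log2 scale (exact permutation p = 0.0286 for each). The RNA came from TA muscle, and counts of *Agrn* do not show which cells made it or in which form. Its ratio to *Lrp4* is therefore one of genes only. *Agrn* to *Lrp4* was 1.07 to 2.02 at E18.5, 2.62 to 3.62 at 2 wks and, by 7 wks, 1.03 to 2.47. The 2 wks libraries were above those of both other ages, with log2 differences of 0.84 from E18.5 and -0.81 to 7 wks (exact permutation p = 0.0286 for each, adjusted 0.0536), while 7 wks and E18.5 overlapped (0.04, exact permutation p = 0.971). *Musk* to *Lrp4*, kinase to co-receptor, was 0.206 to 0.237 at E18.5, 0.0847 to 0.209 at 2 wks and, by 7 wks, 0.121 to 0.237. These overlapped, with log2 differences of -0.66 (exact permutation p = 0.0571) and 0.20 (exact permutation p = 0.6), and the first of them was 0.53 with the GC trend removed.

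**Figure D4:**
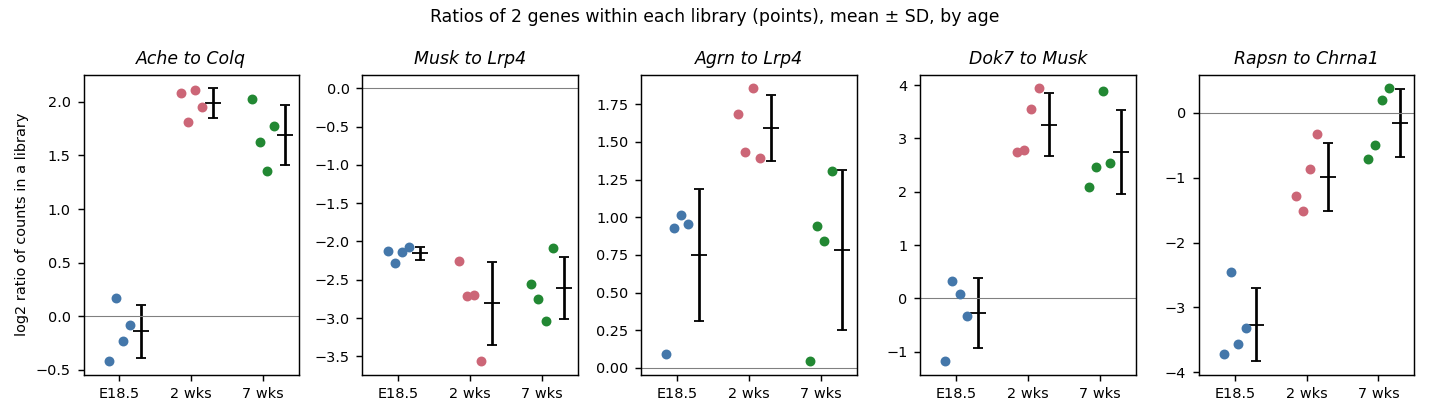
Log2 ratio of the read counts of 2 genes in each library (y axis; points) by age (x axis), with mean ± SD of 4 libraries. The 2 wks libraries lie above all E18.5 libraries for *Ache* to *Colq*, *Agrn* to *Lrp4*, *Dok7* to *Musk* and *Rapsn* to *Chrna1*, and overlap with them for *Musk* to *Lrp4*.

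To compare levels between genes, CPM with TMM scaling were divided by the exon length in kilobases (GENCODE vM39). The order and overlaps that follow hold for TMM alone. They may differ with the GC trend removed, where levels per kb were not derived. At E18.5 *Agrn* was the highest of the 7, at 7.00 ± 1.83 CPM per kb (SD, n = 4), without overlap with *Lrp4* at 3.67. *Lrp4*, *Rapsn* (3.26), *Colq* (3.07) and *Ache* (3.01) overlapped their neighbours in this order, and *Dok7* (1.11) and *Musk* (1.05) came last and overlapped each other. At 2 wks *Ache* (12.5 CPM per kb), *Rapsn* (11.01) and *Agrn* (8.71) led and overlapped in turn, followed without overlap by *Dok7* (5.45) and then by *Colq* (3.04) and *Lrp4* (2.604), which overlapped each other. At 7 wks *Rapsn* (13.9) stood above *Ache* (8.11) and *Ache* above *Agrn* (4.63) without overlap, while *Agrn*, *Dok7* (3.95), *Colq* (2.44) and *Lrp4* (2.33) overlapped their neighbours. *Musk* was last and apart at both later ages, at 0.499 ± 0.204 and 0.504 ± 0.158 CPM per kb.

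The genes whose course over the 12 libraries was most like that of each organiser were found by the root mean square difference of gene-centred log2 CPM among 12324 genes whose mean log2 CPM was 1 or more. These CPM had TMM scaling with the GC trend left in. The genes found had a GC content from 45.3% (*Adam22*) to 62.1% (*Card10*), and the part of the GC trend in their likeness was not tested. Nearest to *Dok7* were *Nosip* (0.131) and *Card10* (0.150), and nearest to *Rapsn* were *Pomgnt2* (0.165), an enzyme that glycosylates dystroglycan, and *Git1* (0.179). *Lrp4* was nearest to *Znrf3* (0.179) and *Susd5* (0.180), *Musk* to *Adam22* (0.227) and *Jag1* (0.243), *Agrn* to *Thsd1* (0.231) and *Evl* (0.240), and *Colq* to *Ski* (0.246) and *Srsf9* (0.251). None of these was itself an organiser. *Ache* was nearest to *Ufsp1* (0.254) and *Hspa2* (0.273). *Ufsp1*, which encodes a protease of the ufmylation system, begins 202 bases after the end of *Ache* on the same strand of GRCm38.p6. Its mean level was 4.82 ± 1.61 CPM at E18.5, 19.7 ± 3.89 at 2 wks and, by 7 wks, 12.5 ± 3.03 (SD, n = 4), a log2 fold change of 2.03 to 2 wks (SE 0.25, adjusted p = 1.32e-05, edgeR) and of -0.66 to 7 wks (adjusted p = 0.0601). Whether reads of the end of *Ache* were counted to *Ufsp1* was not tested.

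The partners of the organisers in the postsynaptic membrane were read from 7 lists that hold 76 genes in all, each of which passed the filter. Their counts stand beside shares of 31.5% higher and 34.2% lower over all genes in the first interval, and 13.5% and 13.9% in the second. These shares are for TMM. With total counts 2552 of the 19276 genes were higher and 11917 lower in the first interval, and 948 and 5391 in the second. In the first interval they were 5147 and 7759 with the GC trend removed, and 4728 and 8539 with the length trend removed. Of the 5 muscle acetylcholine receptor subunits, 2 rose and 2 fell between E18.5 and 2 wks. *Chrne*, the subunit of the adult receptor, rose from 2.00 ± 0.358 CPM (SD, n = 4) to 52.3 ± 19.1 (log2 fold change 4.71, SE 0.26, adjusted p = 1.53e-08, edgeR). *Chrng*, its fetal counterpart, went from 39.7 ± 16.8 to 1.76 ± 0.536 CPM (-4.50, SE 0.35, adjusted p = 2.65e-07), and *Chrnd*, present in both forms, from 54.9 ± 14.6 to 9.14 ± 1.58 (-2.59, SE 0.21, adjusted p = 3.43e-07). From 2 to 7 wks all 5 fell, among them *Chrne* (-0.97, adjusted p = 0.00678) and *Chrng* (-1.63, adjusted p = 0.00371). The smallest of these 5 falls, in *Chrna1*, was -0.54 (adjusted p = 0.0422). All 5 were also called lower under scaling to total counts and after removal of the GC trend, and 3 of the 5 when 2 wks replicate 1 or 2, or 7 wks replicate 1 or 4, was left out. *Rapsn*, which packs these subunits, was not called in that interval.

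Of 20 genes of MuSK signalling and its regulators, 5 rose and 8 fell to 2 wks (median log2 fold change -0.22), and 6 rose and 3 fell from 2 to 7 wks (median 0.06). With total counts the split was 1 and 15 in the first interval and 3 and 5 in the second. *Dvl1*, a dishevelled protein, rose first (2.35, SE 0.24, adjusted p = 2.48e-06) and *Pdzrn3*, a ubiquitin ligase that promotes the breakdown of MuSK, rose in both intervals, from 21.3 ± 5.84 to 54.1 ± 16.3 and 124 ± 11.4 CPM (SD, n = 4; log2 fold changes 1.34 and 1.20, adjusted p = 0.000148 and 0.00182). The call for the first rise of *Pdzrn3* was lost with the GC trend removed (0.56, adjusted p = 0.0509) and with total counts (0.40, adjusted p = 0.0788). Of the 12 genes of the postsynaptic membrane cytoskeleton, 3 rose and 6 fell to 2 wks, and 2 rose and 2 fell thereafter (medians -0.28 and 0.17). With total counts 3 were higher and 9 lower in the first interval and the second median was -0.17, and with the length trend removed 6 were higher and 6 lower in the first. *Sntb1* (β1-syntrophin) fell by 2.99 on the log2 scale to 2 wks (SE 0.34, adjusted p = 6.91e-06). *Scn4a*, the sodium channel of adult muscle, rose in both intervals, by 2.79 (adjusted p = 2.57e-07) and 1.22 (adjusted p = 0.000927).

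In the synaptic basal lamina, where agrin, ColQ and acetylcholinesterase lie, 8 of 17 other genes rose and 6 fell to 2 wks (median 0.45), and 1 rose and 7 fell from 2 to 7 wks (median -0.71). The median of the first interval turned to -0.63 with the GC trend removed and to -0.50 with total counts. *Lamb2*, the laminin β2 chain of the endplate, rose from 42.9 ± 24.5 to 302 ± 89.2 CPM (SD, n = 4; log2 fold change 2.82, SE 0.34, adjusted p = 1.09e-05), and *Col4a3* rose by 4.50 (adjusted p = 9.03e-08). *Prima1*, which anchors acetylcholinesterase in membranes as ColQ does in the lamina, rose in both intervals, by 2.81 (adjusted p = 9.57e-05) and 1.84 (adjusted p = 0.00585), and reached 7.23 ± 2.98 CPM at 7 wks, while *Colq* was called in neither. *Nid2* and *Col4a1* had the largest falls of the second interval in this list, by 2.00 (adjusted p = 1.58e-05) and 1.77 (adjusted p = 0.000309) on the log2 scale. Summed fibroblast markers, which are collagen and matrix genes too, ranged over 5963 to 12271 CPM at E18.5. Their range was 4466 to 6128 CPM for the libraries of 2 wks, and 971 to 4080 CPM by 7 wks. Endothelium markers summed to 293 to 429 CPM in the embryo. Every library of 2 wks had between 669 and 824 CPM of them, and those of 7 wks lay between 402 and 666 CPM. The part of fibroblasts or endothelium in the basal lamina values was not tested.

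Of 9 genes of neuregulin, its ErbB receptors and the ETS factors, a second route by which synaptic nuclei are thought to be instructed, 0 rose and 7 fell to 2 wks (median -0.88), by edgeR with adjustment, by DESeq2 and at an unadjusted p under 0.05. *Nrg1* (-4.85, SE 0.69, adjusted p = 4.07e-05), *Erbb4* (-3.26, adjusted p = 7.61e-06) and *Erbb3* (-1.97, adjusted p = 5.33e-07) had the largest falls, and *Nrg1*, at 1.28 ± 0.580 CPM at E18.5 (SD, n = 4), had 0 to 10 reads per library at 2 wks and 0 to 1 at 7 wks. Its fitted change rests on these few reads and ranged from -6.45 (without 2 wks replicate 4) to -4.36 (without 2 wks replicate 2) with 1 library left out. From 2 to 7 wks 0 of the 9 were called by edgeR or DESeq2, and 1 was higher and 1 lower at an unadjusted p under 0.05. With total counts edgeR called 4 of them lower, and with upper-quartile scaling 1, where 5391 and 3286 of all 19276 genes were lower. Among 8 regulators that respond to electrical activity and denervation, 3 rose and 3 fell to 2 wks and 2 rose and 2 fell thereafter (medians -0.0014 and -0.49). The first median was -0.79 with the GC trend removed (3 higher, 5 lower), -0.62 with the length trend removed and -0.91 with total counts (1 higher, 4 lower). *Myog*, which encodes myogenin, was at 83.7 ± 24.7 CPM at E18.5 and 58.4 ± 26.8 at 2 wks (SD, n = 4). It was at 7.26 ± 1.06 CPM at 7 wks, a fall of 3.01 in the second interval on the log2 scale (SE 0.31, adjusted p = 3e-05, edgeR). *Musk* was not called in that interval, and a link between the 2 genes was not tested. *Dach2*, a repressor of *Myog*, rose from 1.19 ± 0.525 to 6.92 ± 2.86 CPM in that interval (2.54, adjusted p = 0.00058). Of the 5 glycosylation enzymes whose loss causes congenital myasthenia, *Gfpt1* fell (-1.13, adjusted p = 0.000101) and *Dpagt1* rose (0.50, adjusted p = 0.00262) to 2 wks, the latter with a sign that turned under total counts (-0.43), and *Gfpt1* rose from 2 to 7 wks (0.58, adjusted p = 0.0278), a call lost without 2 wks replicate 1, 2 or 4 or 7 wks replicate 1, 2 or 4 (adjusted p 0.055 to 0.0908), with total counts (0.24, adjusted p = 0.334) and with upper-quartile scaling (0.47, adjusted p = 0.0638). With total counts 5 of the 5 were lower at 2 wks than at E18.5, as were 11917 of all 19276 genes.

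**Figure D5:**
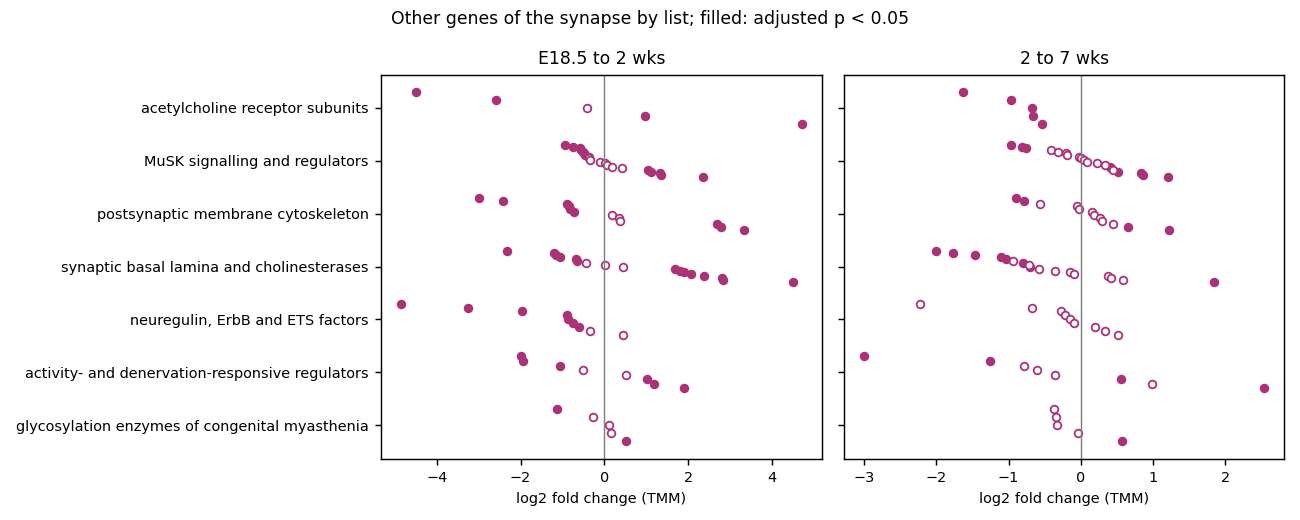
Log2 fold change (x axes, TMM) of the 76 other synaptic genes in their 7 lists (y axis) from E18.5 to 2 wks and from 2 to 7 wks, with a point for each gene, filled where the adjusted p was under 0.05. All 5 acetylcholine receptor subunits lie below 0 in the second interval, and the neuregulin, ErbB and ETS list has 7 filled points below 0 and 0 above in the first.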

How the data were processed

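RNA was extracted from TA muscle pieces of 12 WT mice and sequenced from stranded mRNA libraries. Per the labels, the submitters' processing notes name bcl2fastq 2.17.1.14, cutadapt 1.10, STAR 2.5.3a and HTSeq 0.6.1p1 and the build mm10, while the methods name GRCm39 for mapping, and the annotation and strand setting of the counting are not given in the sources used here. The authors deposited whole-number counts of reads for each Ensembl gene, with no normalization. Coordinates and promoters are from RefSeq on GRCm38.p6, where 4 of the 7 genes had a promoter entry, and exon lengths, GC content and overlaps are from GENCODE vM39 on GRCm39, in which 51477 of the 55450 identifiers were found.

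The members and gene lists were chosen with earlier results of these data known. Counts were scaled with TMM and tested with edgeR 4.0.16 (quasi-likelihood, limma 3.58.1, R 4.3.3) in 1 fit of 12 libraries with age as the term, after filterByExpr, at a Benjamini-Hochberg adjusted p of 0.05 over 19276 genes. Each comparison of ages, and the difference between the 2 intervals, was a contrast. The methods name Cuffdiff after Cufflinks quantification, which was not run on this count table. With a biological coefficient of variation of 0.279 and at least 149 reads per member, the spread between mice exceeded the counting error. Ratios were tested with two-sided exact permutations over 70 regroupings. All 7 members, any list gene, at most the 3 largest called changes of each list in an interval, and the 2 genes most like each member were open to naming; 3 overlapping genes were named after their overlap was seen. A list gene open to naming is not reported here. The GC trend was removed from each library as an offset from a spline over transcript GC content with 5 degrees of freedom. Alternatives were total-count and upper-quartile scaling, TMM without the 20 most abundant and 37 mitochondrial genes, no filter, a filter of 10 counts in each library, a replicate block, removal of GC or length trends, the 8 libraries compared alone, DESeq2 1.42.0, a pseudocount of 0.5 in ratios, and each library left out. Scripts were tested on simulated data.

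No pair of replicates was a copy, since chi-square divided by its degrees of freedom was 31.2 to 524 over the 18 pairs within an age. Motifs and tables were handled with Python 3.11.15, pandas 2.3.3 and numpy 2.4.6, and figures with matplotlib 3.10.9.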

Additional observations from a re-analysis of the deposited data

Results flagged for a closer look

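In sets of 4 libraries of an age, a value was singled out where its gap to the nearest other, divided by the range, exceeded the 95% critical value of Dixon's test. Of 36 sets, 3 met this, where chance gives about 1.8. *Lrp4* at 2 wks was 20.6 CPM in replicate 3 and 30.2 to 30.7 CPM in the other libraries. Without that library the fall of *Lrp4* to 2 wks was 0.37 on the log2 scale and no longer called (adjusted p = 0.120, edgeR). The ratio of *Agrn* to *Lrp4* reads at E18.5 was 1.07 in replicate 1, the library lowest in GC-rich transcripts, and 1.91 to 2.02 in the others. The ratio of *Dok7* to *Musk* reads at 7 wks was 14.8 in replicate 3, which had the lowest *Musk*, and 4.23 to 5.79 in the others.

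The change to 2 wks minus the change from 2 to 7 wks differed from 0 in *Dok7* (2.76 on the log2 scale), *Ache* (2.68) and *Agrn* (1.23). Under TMM these 3 were higher at 2 wks than at E18.5, for *Agrn* without passing the test, and lower at 7 wks than at 2 wks, which passed the test for *Agrn* alone. Without the GC trend *Dok7* remained called at 1.08, and the value for *Agrn* was -0.03.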

How the results depend on the processing

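No reported direction of *Musk*, *Rapsn*, *Dok7*, *Lrp4* or *Ache* between E18.5 and 2 wks turned under any alternative, and those of *Musk*, *Rapsn*, *Dok7* and *Ache* stayed called in each. For the organisers, 236 of 273 values under other settings kept direction and call, 6 lost the call, 16 gained one and 15 changed sign. With a library left out these were 302 of 336, 17, 7 and 10.

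With total counts the sign turned for *Agrn* to 2 wks (-0.60), *Musk* (-0.36) and *Rapsn* (-0.0049) from 2 to 7 wks, the difference between intervals of *Colq* (-0.25) and *Dpagt1* (-0.43). With the GC trend removed it turned for *Agrn* to 2 wks (-0.66), *Musk* (-0.14) and *Lrp4* (0.037) from 2 to 7 wks, the differences between intervals of *Rapsn* (-0.061), *Agrn* (-0.033) and *Colq* (-0.55), the ratios of *Musk* to *Lrp4* (0.53, -0.11 and 0.41 for the 2 intervals and the whole span), *Agrn* to *Lrp4* over the whole span (-0.094) and *Dok7* to *Musk* from 2 to 7 wks (0.070). The step of *Musk* from 2 to 7 wks, 0.02 under TMM, was also -0.10 with upper-quartile scaling, -0.028 with the filter of 10 counts, -0.074 with the length trend removed (where *Dpagt1* was -0.21) and -0.024 in the 8 libraries alone. The replicate number as a block turned *Colq* to 2 wks to 0.024 and called the difference between intervals of *Rapsn* (1.55, adjusted p = 0.0319, edgeR), and it changed no other call of an organiser. Deviations from the age means correlated by -0.28 to 0.51 over the 12 pairs of libraries with the same number. Over the 36 pairs with other numbers the range was -0.50 to 0.38. The medians were 2e-04 and 0.014. Ranges this wide cannot show whether the numbers pair mice.

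The count of organisers called from 2 to 7 wks was 1, where 2609 of 19276 genes were called higher and 2687 lower. It was 4 with total counts, where 948 genes were higher and 5391 lower, and 2 with the GC trend removed (3187 and 3050). In the 8 libraries alone it was 3, where 3044 of 16913 genes were higher and 3127 lower. With a library left out it was 1 to 2, where all genes called ranged from 3472 to 6145. For the difference between intervals 2 to 5 organisers were then called, where all genes called ranged from 5273 to 8297. The cause was not tested. With the GC trend removed the adjusted p of 9 ratio tests was 0.0476 (exact permutation), for *Ache* to *Colq* (1.61 to 2 wks and 1.55 over the whole span), *Agrn* to *Lrp4* (0.61 and, from 2 to 7 wks, -0.71), *Dok7* to *Musk* (1.80 and 1.87) and *Rapsn* to *Chrna1* (0.92, 1.33 and 2.25 over the whole span). Each of the 9 had the smallest possible p, 0.0286. The adjusted p fell from 0.0536 because *Rapsn* to *Chrna1* from 2 to 7 wks, at 0.114 without the removal, reached that p too. The other steps named were each smaller than without the removal. With a library left out, *Colq* to 2 wks ranged from -0.22 to 0.23 and *Musk* from 2 to 7 wks from -0.16 to 0.28. The ratios ranged, over the whole span, from 1.72 to 1.95 for *Ache* to *Colq*, -0.63 to -0.31 for *Musk* to *Lrp4*, -0.18 to 0.28 for *Agrn* to *Lrp4*, 2.64 to 3.24 for *Dok7* to *Musk* and 2.93 to 3.38 for *Rapsn* to *Chrna1*, and, from 2 to 7 wks, from -0.049 to 0.385 for *Musk* to *Lrp4* and -0.98 to -0.56 for *Agrn* to *Lrp4*. *Agrn* at 7 wks against E18.5 (-0.60, adjusted p = 0.0398) lost its call with the length trend removed (-0.48) and without E18.5 replicate 2, 3 or 4, 2 wks replicate 2, 3 or 4, or 7 wks replicate 1 or 3 (adjusted p 0.0514 to 0.133).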
